A study of Mus musculus with 2 samples.

Results

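The 31 genes described here make, sense, move, export and store cholesterol. All 31 were found by symbol among the 32285 genes listed in both libraries. They comprised 18 synthesis enzymes, 5 sterol-sensing genes, 3 export genes and 5 genes of uptake, transport and storage. Their RNA was counted cell by cell in the optic nerve of Nf1-OPG mice, a model of neurofibromatosis type 1 optic glioma (genotype Nf1flox/neo; GFAP-Cre). In these mice 1 Nf1 allele carries a neomycin cassette and the other is removed by Cre under the GFAP promoter, active in neuroglial progenitors, so the wider tissue holds 1 working copy and the control mice carry both alleles too. One library came from mice given vancomycin, an antibiotic, from 6 to 12 weeks of age, and the other from mice labelled Control, for which the series design names PBS. Each library was a pool of 10 mice harvested at 12 weeks of age. With 1 library per group there is no replicate check and no test was made. The intervals given below are 95% intervals for counting error only, and they leave out the spread between mice.

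Cells build cholesterol from acetyl-CoA through mevalonate and squalene, and the SREBP transcription factors raise the genes of this route when sterols in the endoplasmic reticulum run low. In the nervous system, oligodendrocytes need cholesterol for myelin membrane and astrocytes supply it to other cells, since lipoproteins do not readily cross the blood-brain barrier. Macrophages and microglia take up lipid debris, release cholesterol from lysosomes through the NPC proteins, store it as esters and export it through ABC transporters.

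The promoters of 4 members, chosen after their values were seen, are shown because they were the ones at least 2-fold lower in vancomycin precursors below: the synthesis enzymes Hmgcs1, Idi1 and Cyp51, and the sterol sensor Insig1. Promoter windows came from RefSeq (build GRCm38.p6) and run from 250 bases before to 50 bases after the start site. Entries were matched for 25 of the 31 members by symbol. Not matched were Fdps, Fdft1, Sqle, Stard4, Abcg1 and Npc1. Both strands were searched for the core of the sterol regulatory element, TCACNCCAC, and for the CCAAT box, and neither motif contains the other. The 250 bases before the start site are printed 5′ to 3′ on the strand of the gene, with matches in capitals (ATTGG is CCAAT on the other strand).
Hmgcs1, chr13:119690101-119690350, plus strand: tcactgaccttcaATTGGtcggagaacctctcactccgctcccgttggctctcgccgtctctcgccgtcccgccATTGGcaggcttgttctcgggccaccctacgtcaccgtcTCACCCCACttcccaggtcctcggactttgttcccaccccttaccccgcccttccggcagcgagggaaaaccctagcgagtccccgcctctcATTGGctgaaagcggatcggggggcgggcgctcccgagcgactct
Idi1, chr13:8885356-8885605, plus strand: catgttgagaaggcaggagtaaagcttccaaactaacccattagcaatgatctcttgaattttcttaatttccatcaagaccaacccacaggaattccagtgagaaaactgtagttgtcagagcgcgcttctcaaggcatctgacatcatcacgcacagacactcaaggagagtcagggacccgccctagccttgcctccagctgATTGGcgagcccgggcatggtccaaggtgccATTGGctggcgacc
Cyp51, chr5:4104698-4104947, minus strand: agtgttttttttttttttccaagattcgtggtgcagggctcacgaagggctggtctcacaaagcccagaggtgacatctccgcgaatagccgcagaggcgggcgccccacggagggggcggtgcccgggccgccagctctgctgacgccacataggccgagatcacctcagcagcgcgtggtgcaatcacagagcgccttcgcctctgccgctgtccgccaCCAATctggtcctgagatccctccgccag
Insig1, chr5:28071162-28071411, plus strand: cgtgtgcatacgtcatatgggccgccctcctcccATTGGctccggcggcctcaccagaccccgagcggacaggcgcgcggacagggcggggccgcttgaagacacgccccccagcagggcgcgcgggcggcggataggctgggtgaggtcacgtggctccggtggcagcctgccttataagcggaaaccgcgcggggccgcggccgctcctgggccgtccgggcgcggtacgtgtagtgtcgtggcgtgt
Hmgcs1 held the sterol core as TCACCCCAC, whose first base lies 137 bases before the start site, and it was the 1 member of 25 with a match, against 1.44% of 27025 genes. A CCAAT box stood in 20 of the 25 members (80%) and in 41.1% of all genes. A gene counted when any of its windows held the motif. A match describes letters in a window, and the absence of these letters says nothing of the factor.

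Of the genes shown, Hmgcs1 lies on the plus strand at chr13:119690379-119708260 and Idi1 on the plus strand at chr13:8885501-8892451. Cyp51 lies on the minus strand at chr5:4081145-4104746 and Insig1 on the plus strand at chr5:28071363-28078662. These positions are from GENCODE M21 (GRCm38, the assembly of mm10). They place the gene starts elsewhere than the RefSeq windows do. The printed bases of Idi1, Cyp51 and Insig1 run past the GENCODE start into the gene.

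The vancomycin library kept 15726 cells and the control 4108, with medians of 6970 and 4870.5 unique molecular identifiers (UMIs, counted molecules) per cell, and 91 cell barcodes were found in both. Cells were typed by gates: a cell joined a type when it held UMIs of at least 3 of 8 markers of that type, and cells passing gates of unrelated types were left out. The libraries differed in make-up. The oligodendrocyte gate held 3687 vancomycin cells and 0 of the 4108 control cells, which allows a share of up to 0.0730%, although both libraries are labelled optic nerve. The control title carries the tag ON and the vancomycin title does not, and the labels do not say whether both were prepared alike. Precursors and astrocytes numbered 766 and 134 in vancomycin against 33 and 46 in control. T cells made up 21.4% and 43.4% of kept cells. With at least 50 cells required, 12 types could be described in the vancomycin library and 5 in both (T cells, NK cells, plasma cells, microglia and fibroblasts). A gate for committed oligodendrocyte progenitors took 104 vancomycin cells whose leading genes included Krt8, Wfdc2 and Deup1 beside Bmp4, so it was left unnamed and out of the comparisons. A level below is the UMIs of a gene summed over the cells of a type, as CPM, counts scaled to the total of that type. Levels within one library share its pool of mice and its free RNA, and they are given to describe where each gene was found.

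Synthesis genes were highest in the oligodendrocyte lineage. The 18 synthesis members summed to 3306 CPM in oligodendrocytes (interval 3288 to 3324), 2244 in precursors (2204 to 2285) and 1028 in astrocytes (948 to 1113) of the vancomycin library. The other 9 types of that library lay between 253 CPM in NK cells and 550 in dendritic cells, with microglia at 339 (325 to 353) and border-associated macrophages at 406 (364 to 451). Of the 18 synthesis members, 13 were highest in oligodendrocytes, 4 in precursors and 1 in astrocytes. The counting intervals of the levels in oligodendrocytes and precursors overlapped for Mvd, Sqle and Hsd17b7. This order between oligodendrocytes and precursors depends on the scaling, as described for the lineage below. In the 5 described types of the control library, which hold microglia but no other glia, the synthesis sums were 473 CPM in T cells, 387 in NK cells, 382 in fibroblasts, 380 in microglia and 223 in plasma cells. The 33 control precursors, under the 50 required here, summed to 3449 CPM.

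**Figure D1:**
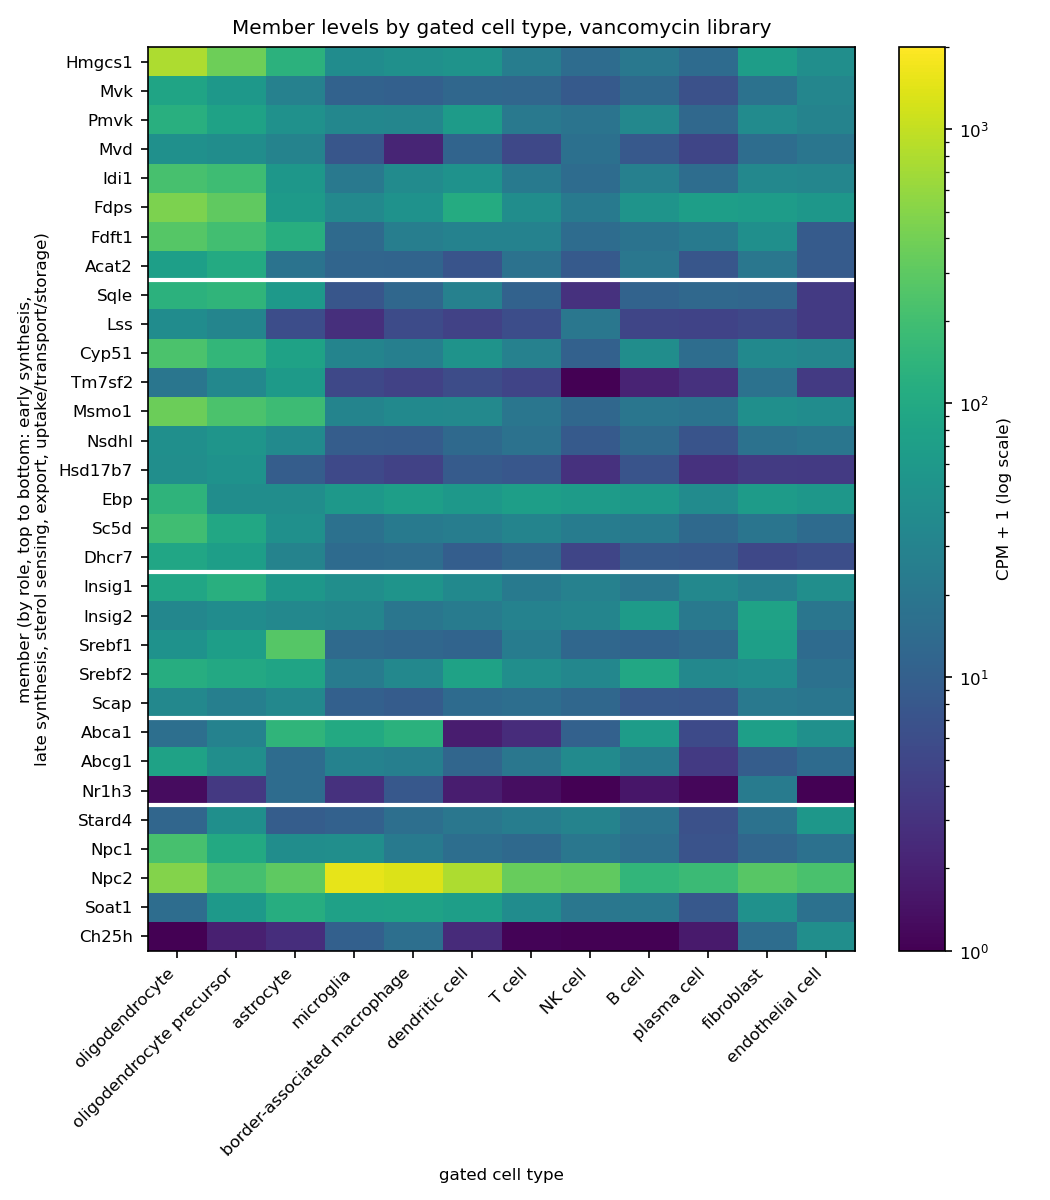
Level of each of the 31 members (rows, grouped by role) in the 12 described cell types of the vancomycin library (columns), as CPM plus 1 on a log colour scale. The synthesis rows are brightest in oligodendrocytes and precursors, and Npc2 is brightest in microglia at 1495 CPM.

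**Figure D2:**
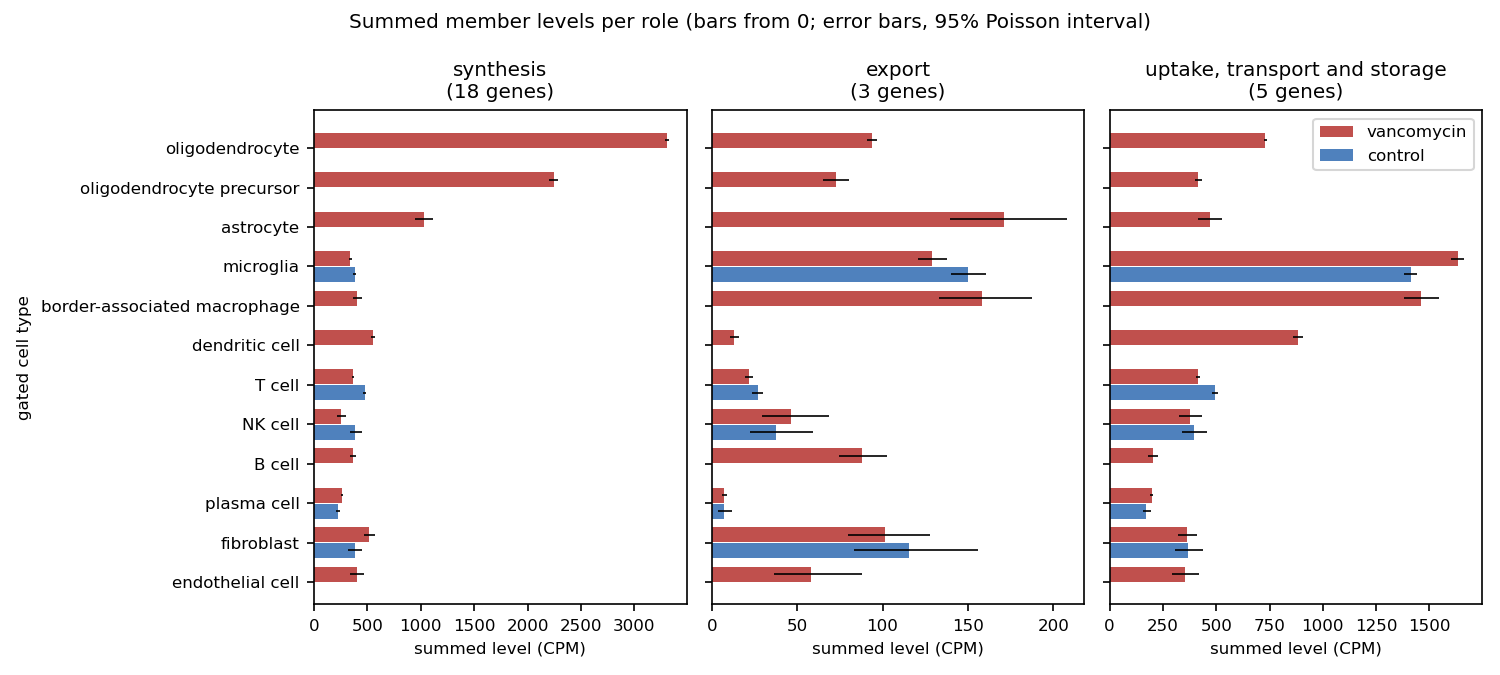
Summed levels (CPM) of the synthesis, export, and uptake, transport and storage members in each gated type, with 95% Poisson intervals as error bars and bars from 0. Synthesis peaks in oligodendrocytes at 3306 CPM, and uptake, transport and storage peak in microglia at 1633 CPM in the vancomycin library and 1411 in the control.

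Against microglia of the same library, all 18 synthesis members were at least 2-fold higher in oligodendrocytes, taken as a log2 ratio of 1 or more after adding 10 CPM to both levels. All 2-fold counts below use that scale, so a gene of low level can be past 2-fold by its printed CPM and short of it in the count. Over the 31 members, 23 were higher and 3 lower, where 15.5% of all genes measured (at least 20 UMIs over both types) were higher and 13.1% lower. The median log2 ratio was 2.14 for the synthesis members and 0.10 for all genes. Among the early enzymes, Hmgcs1, which condenses acetyl-CoA units into HMG-CoA, stood at 776 CPM in oligodendrocytes and 38.9 in microglia, a ratio of 19.98 (interval 17.7 to 22.6). Fdps, which makes farnesyl pyrophosphate, stood at 450 against 34.3 CPM, with a ratio of 13.1 (11.5 to 15.0). Fdft1, the squalene synthase, stood at 266 against 12.95 CPM, with a ratio of 20.5 (16.7 to 25.6). Fdps and Fdft1 flank the branch at which carbon is committed to sterols.

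The late enzymes, from squalene to cholesterol, were likewise higher in oligodendrocytes than in microglia. Sqle, which oxidises squalene and is a known control point of the route, stood at 131 CPM in oligodendrocytes and 6.62 in microglia. Lss, which closes the sterol rings, stood at 39.0 and 1.77 CPM. Cyp51, the lanosterol demethylase, stood at 229 and 30.0 CPM, and Msmo1, which acts next in removing methyl groups, at 357 and 30.2 CPM. The smallest log2 ratios among the 18 were those of Tm7sf2, a sterol reductase, at 1.02 (18.6 against 4.12 CPM) and of Ebp, a sterol isomerase, at 1.16 (138 against 55.9 CPM). With 50 CPM added in place of 10, 13 of the 31 members were at least 2-fold higher.

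Precursors, the dividing cells from which oligodendrocytes arise, placed 17 of the 18 synthesis members at least 2-fold above microglia. Over all 31 members 22 were higher and 2 lower, where 26.8% of genes were higher and 9.92% lower. Ebp was the exception, at 40.3 CPM in precursors and 55.9 in microglia. Sqle had the widest gap, with 143 CPM in precursors, a ratio of 21.6 (16.0 to 29.9). Scaling factors that assume most genes equal (edgeR TMM) shifted the log2 ratios of all genes by -0.76, and 16 synthesis members were then at least 2-fold higher and 1 lower, with 18 higher and 5 lower over all 31.

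Astrocytes placed 10 of 17 measured synthesis members at least 2-fold above microglia, and 13 of 30 measured members in all, with 1 lower, where 24.7% of genes were higher and 12.9% lower. Msmo1 stood at 183 CPM, Hmgcs1 at 132 and Fdft1 at 115. Tm7sf2 reached 62.6 CPM in astrocytes, above the 33.3 of precursors and the 18.6 of oligodendrocytes. Hsd17b7 and Lss stood at 8.47 and 5.08 CPM on 5 and 3 UMIs, and their intervals could not separate them from microglia. The astrocyte counts depended on the scaling. TMM factors shifted the log2 ratios of levels by -0.90, before 10 CPM were added. They left 5 members higher and 4 lower, of which 4 and 1 were synthesis genes.

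**Figure D3:**
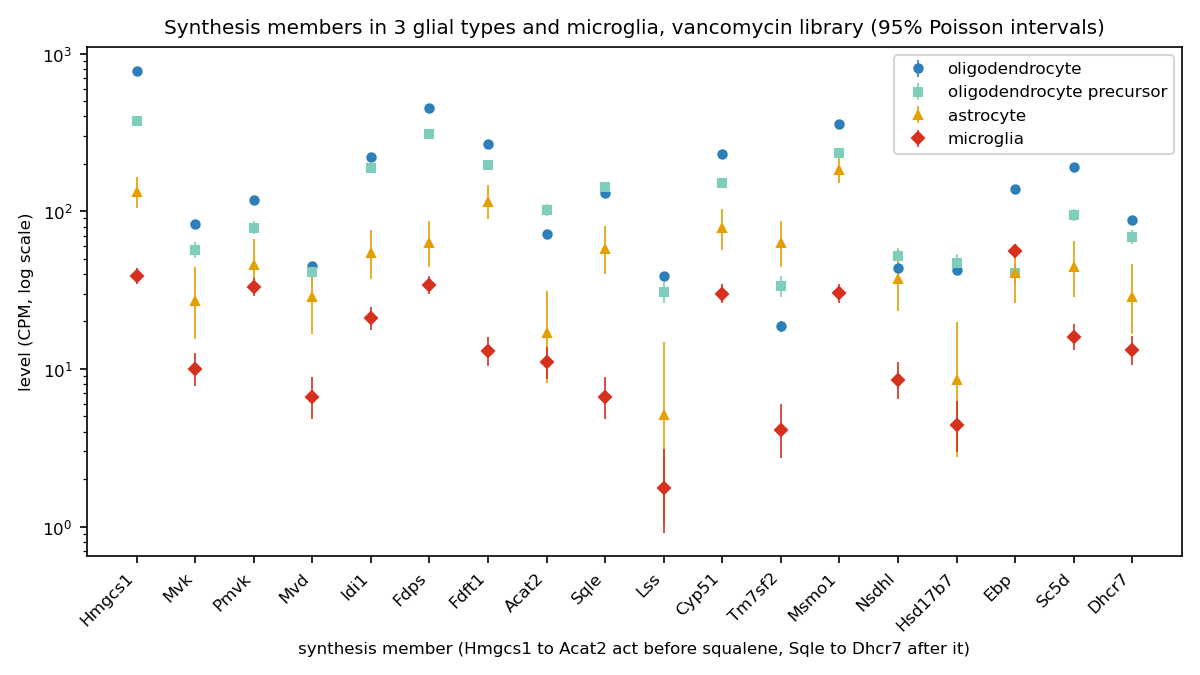
Level (CPM, log axis) of the 18 synthesis members in oligodendrocytes, precursors, astrocytes and microglia of the vancomycin library, with 95% Poisson intervals. Oligodendrocytes or precursors stand highest for 17 members and astrocytes for Tm7sf2, and Ebp is the member for which microglia lie above precursors.

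Within the oligodendrocyte lineage, 4 of 30 measured members were at least 2-fold higher in oligodendrocytes than in precursors and 2 were lower, where 5.76% of genes were higher and 15.4% lower. The higher members were Hmgcs1 (776 against 375 CPM), Ebp (138 against 40.3), Npc1 (216 against 101) and Npc2 (489 against 213). Stard4, a soluble sterol carrier, was lower, at 11.3 CPM in oligodendrocytes and 43.2 in precursors. Soat1, which esterifies cholesterol for storage, was lower too, at 14.3 and 58.0 CPM. Acat2, the cytosolic thiolase that supplies acetoacetyl-CoA, stood at 71.3 CPM in oligodendrocytes and 102 in precursors. These counts depended on the scaling. TMM factors, applied here after the data were seen, shifted the log2 ratios of levels by 0.68, before 10 CPM were added. They gave 12 members higher and 0 lower, with 17 of the 18 synthesis members above 0 against 13 without them. Acat2 then lay at 0.14, while Stard4 and Soat1 kept values below 0, at -0.86 and -0.99.

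Sterol-sensing genes were highest in different types. INSIG proteins hold the SCAP and SREBP complex in the endoplasmic reticulum when sterol is plentiful. Insig1 was highest in precursors at 119 CPM (109 to 128 by counting) and Insig2 in fibroblasts at 78.0. Srebf2, which encodes the factor that drives most synthesis genes, was highest in oligodendrocytes at 112 CPM and stood at 22.4 in microglia. Srebf1, whose product leans towards fatty acid genes, was highest in astrocytes at 266 CPM (interval 226 to 311), above fibroblasts at 71.1, precursors at 69.02 and oligodendrocytes at 47.1. The same gene stood at 462 CPM (390 to 544) in the 46 astrocytes of the control library, above all 5 described types there, of which fibroblasts at 76.9 were the highest. Scap, the escort of SREBP, was near equal in astrocytes and oligodendrocytes at 33.9 and 33.5 CPM.

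The 8 members of export, uptake, transport and storage were highest in different types. Abca1, which loads cholesterol on to lipid-poor apolipoprotein, stood at 144 CPM in astrocytes, 126 in border-associated macrophages and 99.5 in microglia, and the intervals of the first pair overlapped. It was 14.9 CPM in oligodendrocytes, at least 2-fold below microglia. Abcg1, an exporter to lipoprotein particles, was at least 2-fold higher there, with 78.5 CPM in oligodendrocytes and 27.7 in microglia. Nr1h3, the LXR receptor that raises both exporters when oxysterols accumulate, was highest in fibroblasts at 22.3 CPM and lay at 1.91 CPM in microglia and 7.04 in border-associated macrophages.

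Npc2, the lysosomal protein that hands cholesterol to NPC1, stood at 1495 CPM in microglia and 1329 in border-associated macrophages, against 776 in dendritic cells and 489 in oligodendrocytes. Its partner Npc1 had another order, at 216 CPM in oligodendrocytes, 42.4 in microglia and 21.1 in border-associated macrophages. Soat1 stood at 113 CPM in astrocytes, 79.8 in border-associated macrophages and 75.9 in microglia. Ch25h, which makes an oxysterol, was highest in endothelial cells at 42.4 CPM, and so was Stard4 at 55.6 CPM. Summed over uptake, transport and storage, microglia held 1633 CPM (1602 to 1663) and oligodendrocytes 731 (723 to 740), and Npc2 made up 1495 of the microglial sum. The 3 export genes summed to 171 CPM in astrocytes (139 to 208), 158 in border-associated macrophages (133 to 187), 129 in microglia (121 to 138) and 93.7 in oligodendrocytes. The intervals of the first pair overlapped.

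Between the macrophage types, no member of 29 measured reached 2-fold after 10 CPM were added: 0 were higher and 0 lower in border-associated macrophages than in microglia, where 3.18% of genes were higher and 3.95% lower. The counting interval lay off 1 for 5 members. Npc1, on 18 and 288 UMIs, had a ratio of 0.498 (0.291 to 0.802), past 2-fold by its levels alone, and Npc2 of 0.889 (0.835 to 0.945), while Idi1, Fdft1 and Abca1 lay above 1.

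Genes of oligodendrocyte myelin were also counted in other types of the vancomycin library. In its types outside the oligodendrocyte lineage, the summed level of Mog, Mag and Mobp, a set put together after the data were seen, was 0.212% (plasma cells) to 1.04% (astrocytes) of that in oligodendrocytes. Free oligodendrocyte RNA at that share would make up 1.84% (dendritic cells) to 11.9% (NK cells) of the synthesis sums, with 8.53% in microglia. The 3 genes taken singly gave unlike shares, so this size is uncertain. Microglia held Mog at 0.168%, Mag at 0.715% and Mobp at 2.15% of the oligodendrocyte level, which would come to 1.64%, 6.98% and 20.9% of their synthesis sum. In control the 3 genes together reached at most 0.336% of the vancomycin oligodendrocyte level, in microglia. That value was mostly Mag, at 26.5 CPM on 151 UMIs, with Mog on 0 and Mobp on 11. Control T cells held Mag on 1 UMI. Mag stood at 33.0 CPM in vancomycin microglia, and the part of free RNA in microglial Mag was not tested.

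Other lists of the field, chosen with earlier results of these data known, were read in the same way. Of 16 genes of fatty acid synthesis, 12 were at least 2-fold higher and 1 lower in oligodendrocytes than in microglia, with a median log2 ratio of 2.83 against 0.10 for all genes. Scd2, a fatty acid desaturase, stood at 2672 against 15.9 CPM, and Fabp5, a fatty acid binding protein, at 2275 against 100 CPM.

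For the 3 lists that follow, the shares over all genes are again 15.5% higher and 13.1% lower. Of 14 further export genes, 3 were higher and 4 lower in oligodendrocytes. Apod, a lipocalin that binds small lipids, stood at 8625 CPM in oligodendrocytes and 22.5 in microglia, while Apoe, the main lipoprotein of brain glia, stood at 389 and 9669 CPM. Of 12 measured genes of uptake, 3 were higher and 4 lower. The lipoprotein receptor Vldlr stood at 111 CPM in oligodendrocytes and at 0.147 in microglia on 1 UMI, and Lrp1, a broad scavenging receptor, at 0.953 and 87.0 CPM. Scarb2 stood at 250 and 118 CPM, and Stard3, a late endosomal sterol carrier, at 114 and 86.7. Of 12 measured genes of sterol side steps and SREBP processing, 3 were higher and 1 lower. Aacs, which activates acetoacetate, stood at 56.8 and 8.10 CPM, Acat1 at 89.7 and 38.3, and Mylip, which degrades lipoprotein receptors, at 8.76 and 133.

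The second question was whether the members differed between vancomycin and control. The 5 types with at least 50 cells in each library were compared as gated, and precursors and astrocytes were compared with cells passing 2 gates kept, which raised the control numbers to 50 and 51 cells (vancomycin 1000 and 156). All 7 comparisons share the same pair of libraries, so they are not independent of each other. Library, cell make-up, depth and Cell Ranger version (7.2.0 for vancomycin and 6.0.1 for control, whose defaults for counting intron reads differ) go along with treatment and cannot be told apart from it.

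Insig1 was lower in the vancomycin library in each of the 7 types, with a counting interval below 1 in 7 of 7, and this direction held under TMM and DESeq2 scaling. In T cells it stood at 21.7 CPM in vancomycin and 80.8 in control, a log2 ratio of -1.52 (ratio 0.268, interval 0.236 to 0.304). In plasma cells it stood at 33.6 and 80.8 CPM, a log2 ratio of -1.06. NK cells had 27.0 and 54.4 CPM, microglia 41.5 and 55.4, and fibroblasts 26.5 and 55.0. Precursors had 105 and 251 CPM, and astrocytes 57.0 and 116. The difference was smallest in microglia, at a log2 ratio of -0.34, and after 10 CPM were added it passed 2-fold in T cells, plasma cells and precursors. By the levels alone it was also past 2-fold in NK cells, fibroblasts and astrocytes, with ratios of 0.496, 0.482 and 0.493. Of 4633 genes measured in all 7 types, 8.61% lay below 0 in each, and Insig1 was the 1 of 9 such members to do so, a share of members near that of all genes. Median UMIs per cell were 3952 in vancomycin and 5107 in control for T cells, and 18479.5 and 19913.5 for plasma cells; the part of depth in the difference was not tested. With cells thinned to 1000 UMIs, the T cell log2 ratio of Insig1 was -1.53. Set against the median log2 ratio of the other types, it was -0.70 and no longer passed.

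Insig2, the isoform that does not depend on SREBP, went the other way in 6 of 7 types, with an interval above 1 in 4. It stood at 28.4 and 20.2 CPM in T cells, 20.4 and 12.2 in plasma cells, 30.5 and 19.6 in microglia and 78.0 and 38.5 in fibroblasts. Astrocytes were the exception at 39.8 and 78.8 CPM. After 10 CPM were added no difference of Insig2 reached 2-fold, while the fibroblast levels alone had a ratio of 2.03 (1.11 to 3.94). Of the 4633 genes measured in all 7 types, 27.7% lay above 0 in at least 6, as did 3 of the 9 members so measured (Ebp, Insig2 and Npc2).

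**Figure D4:**
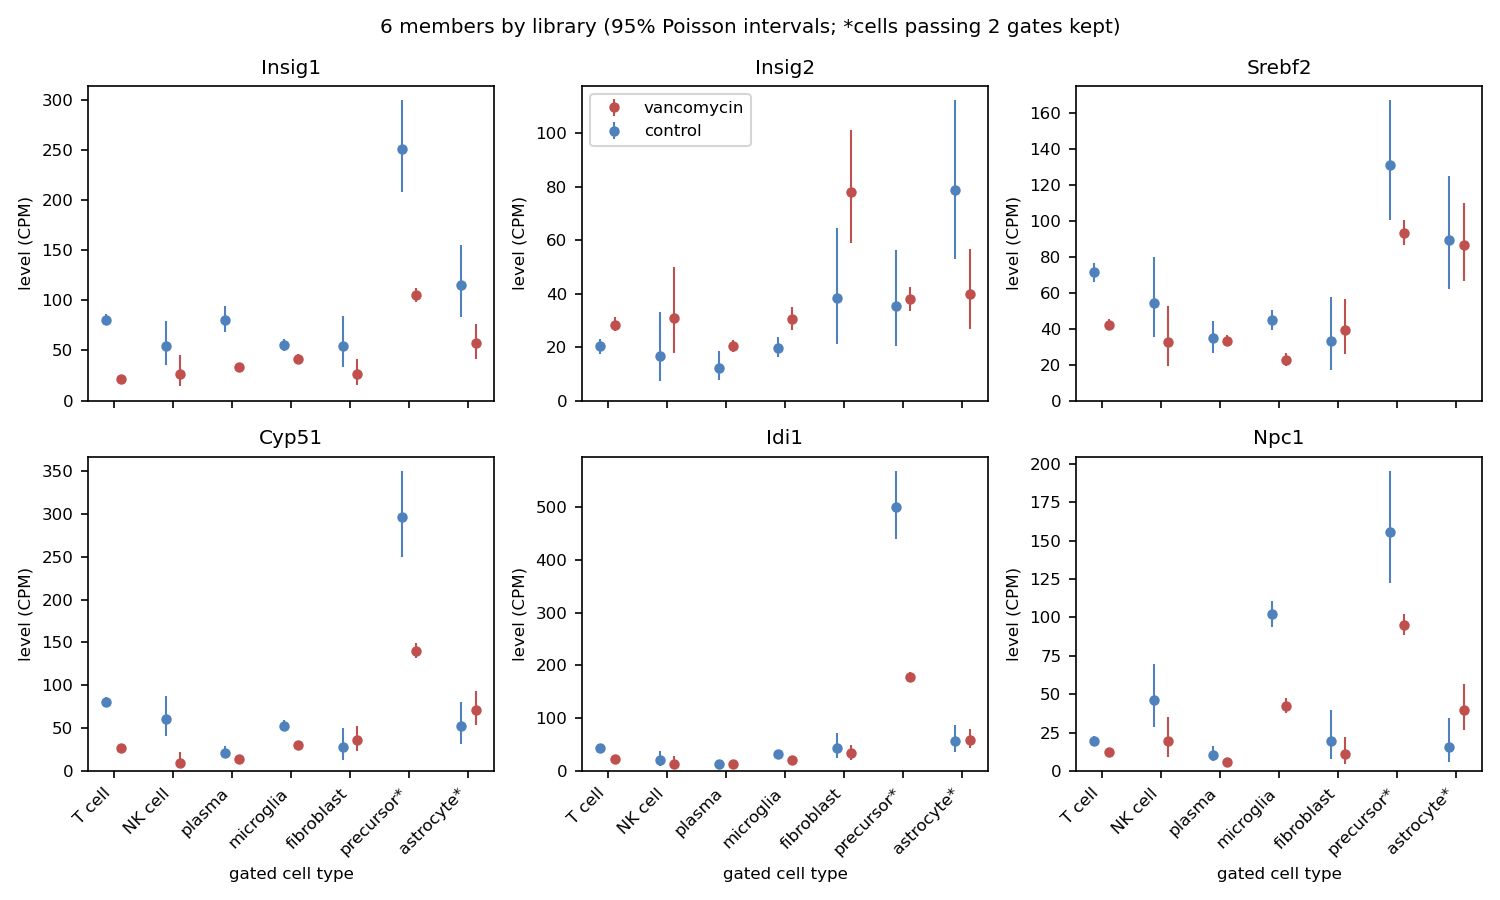
Levels (CPM) of 6 members in the vancomycin and control libraries for 7 types, with 95% Poisson intervals; asterisks mark types in which cells passing 2 gates were kept. For Insig1 the vancomycin point lies below the control point in every type shown, while Insig2 lies above it in all but astrocytes.

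In T cells, 0 of 29 measured members passed 2-fold upward and 2 passed it downward in vancomycin, where 1.69% of genes were higher and 1% lower. The lower pair was Insig1 and Cyp51, which stood at 27.2 against 80.6 CPM, with a ratio of 0.337 (0.300 to 0.379). Sc5d, a late desaturase, followed at 29.5 and 65.0 CPM, then Idi1, which isomerises isopentenyl units, at 22.1 and 44.0, and Sqle at 9.97 and 21.4. Others leaned the opposite way: Fdft1 at 27.8 and 19.6 CPM and Ebp at 70.1 and 56.7. The synthesis sum was 366 CPM (357 to 376) in vancomycin and 473 (459 to 486) in control. Of the 18 synthesis members, 7 had an interval below 1 and 5 had one above it. Srebf2 stood at 42.0 and 71.3 CPM. The leading genes of the T cell gate, ranked over the other cells of each library, were unlike. They included Tnfrsf4, Ccr8, Pdcd1 and Izumo1r in vancomycin and Cd8b1, Cd8a, Gzmk and Icos in control. The part of T cell make-up in these values was not tested.

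In NK cells, 12 members were measured, and 0 were higher and 2 lower, where 3.84% of genes were higher and 5.29% lower. Cyp51 stood at 9.64 and 60.7 CPM on 5 and 29 UMIs, a ratio of 0.159 (0.0480 to 0.415). Sc5d stood at 23.1 and 60.7 CPM on 12 and 29 UMIs. Both rest on few molecules. Plasma cells had 0 of 29 higher and 1 lower, Insig1, where 2.56% of genes were higher and 0.897% lower. All 8 early enzymes lay above 0 there, by log2 ratios of 0.08 to 0.46, beside a median of 0.17 for all genes in that comparison. TMM factors shifted the log2 ratios of levels by -0.29, before 10 CPM were added. With them 5 of the 8 lay above 0 and 3 below.

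Microglia had 0 of 30 measured members higher and 1 lower, where 2.21% of genes were higher and 2% lower. Npc1 was the lower one, at 42.4 and 102 CPM, a ratio of 0.416 (0.360 to 0.480), and set against the median log2 ratio of the other types Npc1 was at -0.66, under 2-fold. Its partner Npc2 stood at 1495 against 1211 CPM, with a ratio of 1.24 (1.20 to 1.27). Msmo1 stood at 30.2 and 58.0 CPM, Cyp51 at 30.0 and 52.7, Srebf2 at 22.4 and 44.5 and Scap at 9.27 and 15.9. The exporters Abca1 (99.5 and 118 CPM) and Abcg1 (27.7 and 31.0 CPM) and the storage enzyme Soat1 (75.9 and 85.0 CPM) differed less. Across microglia the synthesis sums were 339 (325 to 353) and 380 (364 to 396) CPM, and 3 synthesis members had an interval above 1 and 4 below it.

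Other lists gave further values in microglia, where 2.21% of all genes were higher and 2% lower. Of 12 measured export genes, 2 were higher and 0 lower in vancomycin: Apoc1 at 87.7 and 18.04 CPM and Apod at 22.5 and 1.58 CPM. Apod stood at 8625 CPM in oligodendrocytes of the vancomycin library. Mog, Mag and Mobp together in microglia were at 0.874% of the oligodendrocyte level in vancomycin and 0.336% in control. The control value was mostly Mag, with Mog on 0 UMIs. The part of free RNA in the Apod value was not tested. Apoe stood at 9669 and 5264 CPM, short of 2-fold. Of 12 measured uptake genes, 1 was higher and 2 lower: the fatty acid and lipoprotein scavenger Cd36 at 69.6 and 19.1 CPM, the oxidised lipoprotein receptor Olr1 at 2.50 and 21.7 CPM, and the lipase Lpl at 36.5 and 104 CPM. Lrp1 stood at 87.0 and 129 CPM and Scarb2 at 118 and 157. Of 12 measured fatty acid genes 0 passed in either direction, with Acly at 86.8 and 135 CPM, Fabp5 at 100 and 51.3 and Mlxipl at 48.0 and 96.0. Of 12 measured genes of sterol side steps and SREBP processing 1 was lower, Mylip, at 133 and 287 CPM. Por stood at 45.5 and 66.4 CPM and Ggps1 at 46.7 and 27.5.

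Fibroblasts had members at least 2-fold higher in vancomycin. Of 19 measured members, 4 were higher and 0 lower, where 4.94% of genes were higher and 3.73% lower. They were the synthesis enzymes Pmvk (37.6 and 11.0 CPM), Fdps (65.5 and 22.0), Fdft1 (43.2 and 13.7) and Msmo1 (43.2 and 16.5). Control counts behind them were 4 to 8 UMIs, and the ratio of Fdps, 2.98, had an interval of 1.39 to 7.30. Hmgcs1 stood at 68.3 and 71.5 CPM and Insig1, as above, was lower. The synthesis sums were 515 CPM (464 to 571) and 382 (321 to 451). With cells passing 2 gates kept, 1 member was higher and 2 lower, and with cells thinned to 1000 UMIs 0 were higher. The difference in direction between fibroblasts and T cells was not tested.

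In precursors the synthesis sum was lower in vancomycin. The 18 synthesis members summed to 2096 CPM (2064 to 2129) in vancomycin and 3427 (3264 to 3597) in control. Of 30 measured members 0 were at least 2-fold higher and 4 lower, where 4.64% of genes were higher and 2.11% lower. Idi1 stood at 178 against 500 CPM, with a ratio of 0.356 (0.310 to 0.410). Hmgcs1 stood at 356 against 795 CPM, with a ratio of 0.447 (0.402 to 0.499). Cyp51 stood at 141 and 297 CPM and Insig1 at 105 and 251. These are the genes whose promoters are printed above, and their log2 ratios lay between -1.03 and -1.44.

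Other precursor members took both directions. Lss, Sc5d and the sterol carrier Stard4 came nearest to 2-fold on the scale with 10 CPM added, at 29.8 and 62.3 CPM, 89.5 and 170, and 41.4 and 83.0. Fdps stood at 288 and 309 CPM with an interval that held 1, and Mvd at 39.4 and 20.8, above it. Npc1 stood at 95.0 and 156 CPM and Npc2 at 271 and 187. The 33 control precursors gated without such cells gave 787 CPM for Hmgcs1 (688 to 896), 542 for Idi1 (461 to 634), 242 for Cyp51 (188 to 305) and 235 for Insig1 (182 to 298), and a synthesis sum of 3449 (3238 to 3670) against 2244 in vancomycin. On those cells 2 of the 4 stayed at least 2-fold lower, Hmgcs1 and Idi1, and TMM factors on the larger set left 3, without Cyp51.

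The make-up of that gate was described by the other gates its added cells passed and by its leading genes. The 17 control cells added by keeping cells that passed 2 gates all passed the committed progenitor gate and 16 passed the astrocyte gate. The T cell gate was passed by 1 of them and the plasma cell gate by 1. Of the 234 added vancomycin cells, 224 passed the committed progenitor gate and 150 the astrocyte gate. The T cell gate was passed by 39, the plasma cell gate by 44, the microglia gate by 17 and the dendritic cell gate by 18. The first 10 leading genes of the control precursors were Olig1, Lhfpl3, Cspg5, Cntn1, Sox10, Pllp, Tnr, Neu4, Olig2 and Pcdh15. Those of the vancomycin precursors were C1ql1, Olfm2, Cspg5, Nrxn3, Ptprz1, Nxph1, Cspg4, Cacng4, Grm5 and Lhfpl3. Markers of the precursor gate among them numbered 2 in control and 4 in vancomycin. Markers of other gates numbered 1 in control, the committed progenitor marker Neu4, and 0 in vancomycin. Leading genes were ranked by fold over the other gated cells of the same library. With cells of 2 gates kept, those held 4191 oligodendrocytes in vancomycin and 0 in control. Genes shared by the lineage can thus rank lower in vancomycin, and the lists cannot tell whether the precursors themselves differed. Median UMIs were 9441 in control and 6410.5 in vancomycin precursors as first gated. The part of these differences in the synthesis result was not tested.

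Other lists in precursors gave few 2-fold differences, where 4.64% of all genes were higher and 2.11% lower. Of 14 measured fatty acid genes 0 passed in either direction, with Scd2 at 578 and 581 CPM, Fabp5 at 323 and 174 and the desaturase Fads2 at 111 and 187. Of 12 measured genes of sterol side steps and SREBP processing, and of 11 of uptake, 0 passed. Acat1 stood at 117 and 170 CPM, Ggps1 at 73.1 and 68.5 and Erlin1 at 20.8 and 35.3. Lrp1 stood at 381 and 569 CPM, Scarb2 at 74.5 and 72.7, Lpl at 4.48 and 16.6 and the lysosomal lipase Lipa at 30.7 and 14.5. Of 13 measured export genes Apod was higher, at 297 and 6.23 CPM on 3 control UMIs, a ratio of 47.8 (16.3 to 232). Apoe stood at 1238 and 891 CPM and Abca2 at 29.7 and 10.4. Apod stood at 8625 CPM in vancomycin oligodendrocytes, a type with 0 control cells; the part of free RNA in its precursor value was not tested.

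Astrocytes had 0 of 25 measured members higher and 0 lower, where 6.44% of genes were higher and 4.59% lower. The synthesis sums were 1040 CPM (968 to 1115) and 838 (748 to 935). Hmgcs1 stood at 133 against 86.7 CPM, with a ratio of 1.53 (1.02 to 2.34), above 1, while the precursor ratio lay below 1, and the difference between these types was not tested. Srebf1 stood at 270.5 against 475 CPM, with a ratio of 0.569 (0.464 to 0.699), Insig1 at 57.0 and 116, and Insig2 at 39.8 and 78.8. With the 46 control cells of the stricter gate, 3 members were at least 2-fold lower. The sterol-sensing sum was 491 CPM (442 to 543) in vancomycin and 798 (711 to 893) in control. None of the 8 astrocyte markers was among the 10 leading genes of the control astrocytes, which were Scn7a, Agt, Slc6a11, Dlk1, Col25a1, A2m, Nkx2-4, Fndc3c1, Lrat and Cldn10. Vancomycin astrocytes shared Agt, Slc6a11, Scn7a, Col25a1 and Cldn10 with them but had Aqp4 and Mlc1 in place of genes such as Dlk1 and Nkx2-4. In the 46 control cells of the stricter gate, the first 10 held Mlc1 and Dlk1 but not Aqp4 or Nkx2-4. The control cells were named by the gate. These lists too rank genes over the other cells of each library, whose make-up was unlike, so they do not settle the name. The part of the difference in leading genes in the values was not tested.

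**Figure D5:**
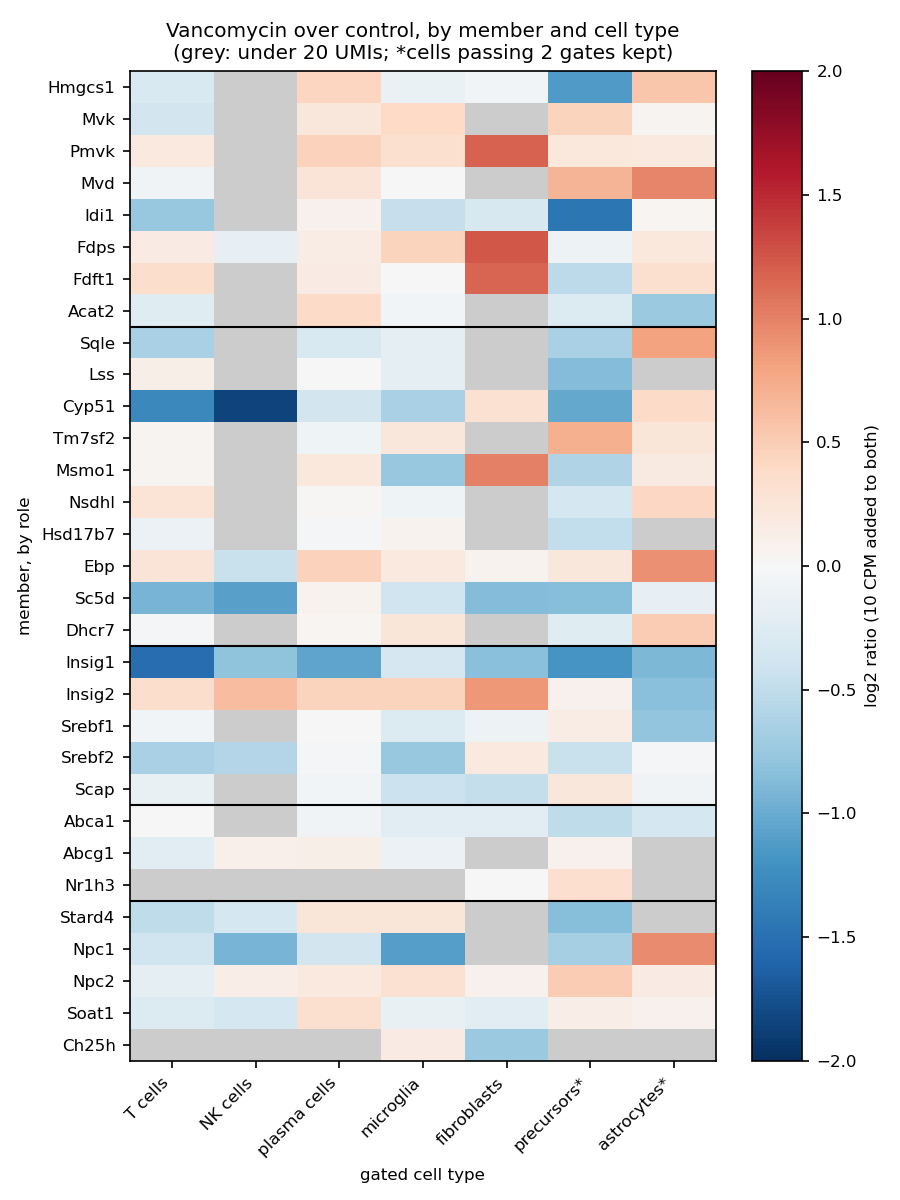
Log2 ratio of vancomycin over control (10 CPM added to both) for the 31 members, by role, in 7 types; grey marks members under 20 UMIs, and asterisks mark types in which cells passing 2 gates were kept. The Insig1 row is blue throughout, the 4 members at least 2-fold higher stand in the fibroblast column, and Idi1 in precursors is at -1.44.

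Across types, members differed in how often they took 1 direction, and such patterns were common among all genes. Of genes measured in all 7 types, 22.5% lay below 0 in at least 6 and 37.0% in at least 5, against 3 and 4 of the 9 members so measured. Of 2066 genes measured in 6 types, 14.7% lay above 0 in all 6, 5.86% below 0 in all 6 and 16.9% below 0 in at least 5. Of the 9 members measured in 6 types the counts were 1, 1 and 3. Nothing particular to these members is read from such counts. Sc5d and Srebf2 lay below 0 in 6 of 7 types, with an interval below 1 in 5 and 3 of them, and under TMM factors the plasma cell value of Sc5d moved from 0.08 to -0.08. Npc1 lay below 0 in 5 of 6 types in which it was measured, with an interval below 1 in 5, and above 0 in astrocytes at 39.8 and 15.8 CPM. Cyp51 lay below 0 in 5 of 7, each with an interval below 1, and above 0 in fibroblasts and astrocytes. Pmvk, a mevalonate-pathway kinase, lay above 0 in 6 of 6 with an interval above 1 in 4. Abca1 lay below 0 in 6 of 6, but its interval excluded 1 in microglia alone, and Nr1h3 and Ch25h were measured in 2 types each.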

How the data were processed

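Single cells of 1 vancomycin and 1 control library were measured with the 10x Genomics 5′ chemistry. The authors deposited unnormalized counts of UMIs for each gene in each cell, from Cell Ranger 7.2.0 for vancomycin and 6.0.1 for control, per the file headers. The submitters' processing notes name mm10 and Partek. These versions differ in their defaults for intron reads, and the settings for introns and cell calling are not given in the sources used here. Protocols in the labels describe sorted meningeal dura, removal of debris and myelin, and pooling; both libraries are labelled optic nerve.

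From these counts, cells with at least 500 UMIs, 200 genes and at most 20% mitochondrial UMIs were kept. Cells were typed by 16 gates (UMIs of at least 3 of 8 markers), and within related types a cell took the type with more markers. Cells of 2 unrelated gates, 2427 (15.4%) in vancomycin and 250 (6.09%) in control, were left out as possible doublets, no doublet caller was run, and 2043 and 722 passed no gate. UMIs were summed per type and scaled to CPM. Log2 ratios used 10 CPM added to both, and 2-fold was the threshold, for genes with at least 20 UMIs. Intervals (95%) are exact Poisson for levels and exact conditional for ratios, and cover counting error only. Python 3.11.15, numpy 2.4.6, pandas 2.3.3 and scipy 1.17.1 were used, and scaling factors alone came from edgeR 4.0.16 and DESeq2 1.42.0 under R 4.3.3. The ratio script was tested on simulated data. Members and lists were chosen with earlier results of these data known. Named were members past 2-fold, those highest in glia or macrophages, the sterol sensors, and of each other list the 2 highest and the 2 largest ratios. Alternatives covered the added CPM, scaling, count minimum, gates, thinning, cell weighting, free RNA and mitochondrial limit. Results of 1 further gene list are not reported here.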

Additional observations from a re-analysis of the deposited data

Results flagged for a closer look

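Control dendritic cells numbered 45, under the 50 required, so they entered no comparison. Members are given here whose level rested on more than 3 UMIs and whose counting interval lay wholly above those of all 5 described control types. Hmgcs1 stood at 144 CPM, Pmvk at 104, Idi1 at 171, Fdps at 173, Fdft1 at 71.2, Sqle at 85.4, Cyp51 at 118, Srebf2 at 136 and Npc2 at 1513 CPM. The 570 dendritic cells of the vancomycin library gave 49.1 CPM for Hmgcs1, 63.0 for Pmvk, 46.5 for Idi1, 106 for Fdps, 28.1 for Fdft1, 27.2 for Sqle, 49.1 for Cyp51, 78.4 for Srebf2 and 776 for Npc2. These 9 members were chosen for high control values, which favours higher values in control, so no direction is read from them. The difference between the libraries was not tested. The 11 control neutrophils, with 25870 UMIs in all, gave 232 CPM for Pmvk, a value that rests on few molecules.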

How the results depend on the processing

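No paired analysis was possible because each group is 1 library, and for the same reason no library could be left out. Of the counts of members, 58 moved by over 1.5 times under an alternative and 226 did not. Of the log2 ratios of single members, 420 moved by more than their counting error and 3242 did not, and none of those past 2-fold changed sign under the alternatives run. Causes of the moves were not tested.

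Adding 1 CPM in place of 10 gave 4 lower in T cells, 1 higher in plasma cells, 3 lower in fibroblasts, 5 lower in oligodendrocytes and 2 lower in astrocytes against microglia, 1 lower in border-associated macrophages, and between libraries 2 higher in precursors and 3 higher and 1 lower in astrocytes. Adding 50 CPM gave 0 lower in T cells, NK cells, plasma cells and microglia, 0 higher in fibroblasts, 13 higher in oligodendrocytes, 10 higher and 1 lower in precursors and 5 higher in astrocytes against microglia, 2 higher and 0 lower in oligodendrocytes against precursors, and 2 lower in precursors between libraries.

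TMM factors gave 5 lower in precursors and 5 higher and 4 lower in astrocytes against microglia, 12 higher and 0 lower in oligodendrocytes against precursors, and 1 higher in astrocytes between libraries. DESeq2 size factors gave 5 lower in precursors, 5 higher and 3 lower in astrocytes, and 12 higher and 0 lower in the lineage. The lineage scalings were added after seeing the data.

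A minimum of 1 UMI gave 2 higher in NK cells, and 50 UMIs 0 lower there and 1 higher in fibroblasts. Gates of 2 markers gave 1 lower in NK cells, 0 lower in plasma cells and 2 lower in astrocytes against microglia, and could not be run for fibroblasts. Gates of 4 markers gave 1 higher and 2 lower in fibroblasts, 2 lower in astrocytes and 1 lower in border-associated macrophages. Keeping cells of 2 gates gave 1 higher and 2 lower in fibroblasts, and leaving them out 2 lower in precursors and 3 lower in astrocytes between libraries.

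Thinning cells to 1000 UMIs gave 0 lower in NK cells, 2 higher in plasma cells, 0 higher in fibroblasts, 1 higher in border-associated macrophages and 2 higher in oligodendrocytes against precursors. Weighting cells equally gave 2 lower in plasma cells, 1 lower in fibroblasts and 2 higher in the lineage. Set against the median of the other types, 0 were lower in T cells, plasma cells and microglia and 1 in NK cells. Less free oligodendrocyte RNA could not be run for comparisons with precursors. Few UMIs limit fibroblasts, NK cells and the control glia.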

Other observations

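B cells of the vancomycin library held the exporter Abca1 at 65.4 CPM, while T cells stood at 1.66, plasma cells at 4.58 and dendritic cells at 0.863. B cells also had Insig2 at 63.1 CPM and Srebf2 at 94.7, against 28.4 and 42.0 in T cells. The control library held 25 B cells, too few to compare. Endothelial cells of the vancomycin library, 94 in number, held Ch25h at 42.4 CPM and Stard4 at 55.6, against 0.0615 and 24.4 in T cells. These values come from 1 library and have no replicate check.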
